A study of Mus musculus with 12 samples.

Results

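The perineuronal net genes described here are 10 genes chosen by name, Acan, Bcan, Ncan, Vcan, Hapln1, Hapln2, Hapln4, Tnr, Has2 and Has3, out of 52636 genes in the deposited expression tables. Each had exactly 1 row in the table of each sex. The tissue was hippocampus, which stores memories of places and contexts, taken at 18 weeks of age from 12 C57BL6/J mice of wild-type genotype. There were 4 groups of 3 mice, formed by sex and by a high or low level of extinction, and each library is labelled with a mouse of its own. In fear extinction an animal that has learned to fear a signal or a place stops reacting to it once repeated exposure brings no harm. No allele or drug distinguished the groups, and the sources used here do not state the behavioural limit between high and low extinction. The comparison asked which transcripts differ between mice that extinguish fear poorly and mice that extinguish it well. Every change below is low minus high extinction.

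Perineuronal nets are lattices of extracellular matrix that wrap the cell body and proximal dendrites of some neurons, in the hippocampus mainly parvalbumin interneurons and neurons of area CA2. Long hyaluronan chains, made at the cell membrane by hyaluronan synthases, form the backbone, chondroitin sulfate proteoglycans of the lectican family bind to it, link proteins hold the bond, and trimers of tenascin-R join the lecticans at their other end. Nets form as circuits mature, and enzymatic removal of chondroitin sulfate is known to alter fear memory and its extinction in rodents.

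Levels are the authors' TPM (transcript abundance scaled to the same total in every library), which are corrected for transcript length and can be compared between genes. The number of genes at 1 TPM or more was 18170 to 19062. Read numbers per library are unknown. Transcripts derived from ribosomal RNA took 7.31% to 21.8% of all TPM, most in replicate 1 of the high-extinction males, and a large share lowers the TPM of every other gene. The hippocampal markers Prox1 (39.0 to 50.6 TPM), Neurod6 (153 to 184 TPM) and C1ql2 (45.3 to 88.2 TPM) were present in all 12 libraries. Choroid plexus transcripts varied between libraries, for a reason that was not tested. Ttr, the main transcript of the choroid plexus, ran from 12.6 to 3300 TPM.

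Brevican was the most abundant net transcript and the hyaluronan synthases were the least abundant. Mean levels over the 12 libraries were 166 TPM for Bcan, 69.3 for Tnr, 61.7 for Hapln4, 61.5 for Ncan, 26.8 for Hapln2, 12.9 for Hapln1, 8.90 for Vcan, 2.08 for Acan, 1.57 for Has3 and 0.208 for Has2. Some neighbours in this order were not separated. Tnr exceeded Hapln4 in 10 of 12 libraries, Hapln4 exceeded Ncan in 8 of 12, and Acan exceeded Has3 in 11 of 12. Hapln1 exceeded Vcan in 12 of 12 libraries, although their ranges over all libraries overlapped. The other 5 steps of the order had ranges that did not overlap.

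**Figure D1:**
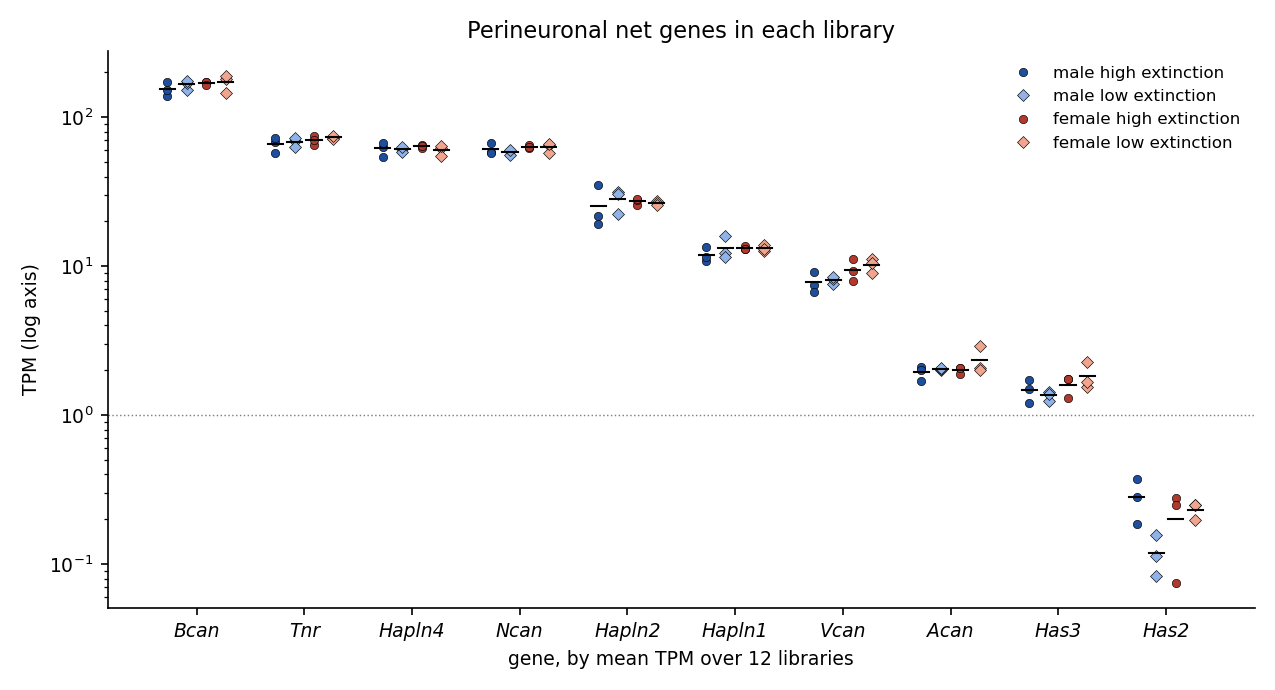
TPM of each perineuronal net gene (log axis) in every library, with genes ordered by their mean; points are libraries, short bars are means of 3 libraries, and the dotted line marks 1 TPM. Bcan lay between 139 and 189 TPM, and Has2 alone lay under 1 TPM in every library.

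The lecticans are the proteoglycans of the net. Bcan, on chromosome 3 from 87987531 to 88000230 on the minus strand (GRCm38, GENCODE M21, as are all gene positions here), encodes brevican, which both glia and neurons make. Its TPM was 139, 174 and 153 in high-extinction males, 153, 169 and 176 in low-extinction males, 172, 172 and 164 in high-extinction females and 182, 145 and 189 in low-extinction females. The groups overlapped in both sexes. Ncan, on chromosome 8 from 70093085 to 70120873, encodes neurocan, and it varied little, from 56.0 to 66.7 TPM. Vcan, on chromosome 13 from 89655312 to 89742509, encodes versican, which oligodendrocyte precursors and blood vessels also make, and it ran from 6.72 to 11.2 TPM. Acan, on chromosome 7 from 79053483 to 79115099, encodes aggrecan, the lectican that defines mature nets around parvalbumin neurons. Acan lay at 1.70, 2.11 and 2.02 TPM in high-extinction males, 2.00, 2.04 and 2.07 TPM in low-extinction males, 2.06, 1.89 and 2.06 TPM in high-extinction females and 2.08, 2.92 and 2.00 TPM in low-extinction females. The single value of 2.92 TPM, from replicate 2, lay above the other 11 libraries, which stayed between 1.70 and 2.11 TPM.

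Of the summed TPM of the 4 lecticans, Bcan made up 67.0% to 71.9%, Ncan 23.7% to 29.2%, Vcan 2.94% to 4.50% and Acan 0.746% to 1.36% in a library. The highest Acan share again came from replicate 2 of the low-extinction females, and in the other libraries it stayed at or below 0.902%. The makeup of the lectican pool was thus dominated by brevican and neurocan in all 4 groups. These are shares of transcripts in whole tissue, and in bulk samples fewer cells of a type and less RNA per cell cannot be told apart.

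Link proteins clamp lecticans to hyaluronan. Hapln4 (chromosome 8, 70083457 to 70090862), the brain link protein of inhibitory synapses and nets, ran from 54.5 to 67.6 TPM and made up 57.4% to 65.8% of the summed TPM of the 3 link proteins measured here. Hapln1 (chromosome 13, 89539796 to 89611652), the cartilage link protein, which is required for compact nets, ran from 10.9 to 16.0 TPM. Hapln2 (chromosome 3, 88021750 to 88027583), a link protein that oligodendrocytes make for nodes of Ranvier, lay at 19.2, 35.2 and 21.6 TPM in high-extinction males, 22.3, 31.5 and 30.3 TPM in low-extinction males, 26.0, 27.9 and 28.0 TPM in high-extinction females and 27.4, 26.7 and 25.6 TPM in low-extinction females. Its spread lay among the males, who held both its lowest and its highest value. Tenascin-R, encoded by Tnr (chromosome 1, 159523769 to 159931729) and made largely by oligodendrocyte lineage cells and some interneurons, ran from 57.2 to 74.9 TPM. Its lowest value came from replicate 2 of the high-extinction males, the library with the highest Hapln2.

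Of the hyaluronan synthases, Has3 (chromosome 8, 106870242 to 106884566) ran from 1.20 to 2.28 TPM and Has2 (chromosome 15, 56665627 to 56694539) from 0.0752 to 0.372 TPM. Has3 made up 80.1% to 95.9% of the sum of the pair. Exons of Has2 overlap those of the antisense gene Has2os, exons of Has3 overlap those of Chtf8 on the opposite strand, and exons of Tnr overlap those of Gm38039 on the opposite strand. The sources used here do not say whether counting was stranded, so reads of these overlaps could belong to either gene.

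The deposited normalized counts and the TPM gave a check of how length enters these levels. Divided by TPM and by the longest annotated coding transcript in kilobases, the mean normalized count in males was 18.5 for Tnr, 20.0 for Bcan, 20.4 for Hapln1, 20.8 for Hapln4, 21.3 for Acan, 21.5 for Ncan, 21.9 for Has2 and Has3 and 25.3 for Hapln2, beside a median of 20.2 over 13450 genes. Vcan gave 12.4, and its coding transcripts run from 294 to 12427 bases. The order by TPM is therefore not the order by counts. Tnr, with a transcript of 12202 bases, had the highest mean normalized count of the 10 genes in males (15161 counts), ahead of Bcan (10108 counts), whose longest coding transcript is 3141 bases.

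Library-to-library variation was small for the major net transcripts. The coefficient of variation over the 12 libraries was 6.16% for Ncan, 6.38% for Hapln4, 7.53% for Tnr and 9.11% for Bcan. The median was 13.1% over all genes that averaged 1 TPM or more. That median is not matched for level, so a small spread particular to net genes cannot be read from it. The coefficient was 10.4% for Hapln1, 13.8% for Acan, 16.3% for Vcan, 16.5% for Hapln2, 18.9% for Has3 and 43.0% for Has2. Has2 is also the gene with the fewest counts, with a mean normalized count of 18.5 in males and 20.2 in females.

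No net gene differed between low and high extinction in either sex, on average over the sexes, or between the sexes in its change, in limma on log2(TPM + 1) with Benjamini-Hochberg adjustment at 0.05. Has2 fell under the filter of a mean of at least 1 TPM, so 9 of the 10 genes were tested. Limma called 0 of 9 in each of the 4 comparisons, and 0 of 9 had an unadjusted p under 0.05. The background was as sparse. Over all genes tested, limma called 0% in males, 0.0107% in females, 0% for the average of the sexes and 0.00541% for the interaction, the male change minus the female change. At an unadjusted p under 0.05 stood 6.29%, 8.83%, 7.70% and 7.92% of all genes. The median change of the 9 genes was 0.05 in males, 0.01 in females, 0.06 for the average of the sexes and -0.01 for the interaction, beside medians of all tested genes of -0.02, 0.06, 0.02 and -0.09. Low and high libraries overlapped for each of these 9 genes in both sexes, beside 11.5% of all genes in males and 16.3% in females whose groups did not overlap. The authors' deposited tables called 0 of the 10 genes in males and, since Has2 has no adjusted p there, 0 of 9 in females, beside 0.504% of all genes in males and 0.857% in females.

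Among the lecticans, Acan had a log2 change of 0.05 in males (SE 0.13, limma adjusted p = 0.995) and 0.14 in females (SE 0.14, limma adjusted p = 0.771). Bcan changed by 0.10 in males (SE 0.11, limma adjusted p = 0.963) and 0.01 in females (SE 0.10, limma adjusted p = 0.981). In neither gene did the difference exceed the spread between mice. The female Acan change was 0.02 without replicate 2 of low extinction (0.02 to 0.21 on leaving out each library in turn), and the male Bcan change was 0.02 without replicate 1 of high extinction (0.02 to 0.18). The 95% interval of the fold ran from 0.837 to 1.28 for Acan and 0.902 to 1.27 for Bcan in males, and from 0.872 to 1.40 and 0.851 to 1.19 in females. The Ncan change was -0.06 in males and -0.00 in females, with an interval of the fold of 0.886 to 1.12 in females, and the Vcan change was 0.06 and 0.11, the latter 0.00 without replicate 3 of the high-extinction females. A p that misses the threshold does not show that the levels were the same, and differences inside these intervals were not detectable with 3 mice a group.

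Among the link proteins, Hapln2 had the largest male change of the 9 genes on this scale, 0.17, with the widest error (SE 0.23, limma adjusted p = 0.967, fold interval 0.775 to 1.64). In females Hapln2 changed by -0.04 (SE 0.07, limma adjusted p = 0.881). Leaving out single libraries moved the male value from 0.01 to 0.42, the highest without replicate 2 of the high-extinction males. Hapln1 changed by 0.13 in males, where replicate 3 of low extinction reached 16.0 TPM, and by -0.01 in females. Without that replicate the male Hapln1 change was 0.00, and leaving out the other males one at a time gave up to 0.22. Tnr changed by 0.05 in males and 0.06 in females.

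Hapln4 had the smallest p of the net genes in females in the authors' deposited table, with a log2 change of -0.16 (SE 0.06, DESeq2 unadjusted p = 0.00623, adjusted p = 0.230). It lay at 65.2, 62.1 and 64.1 TPM at high and at 62.1, 54.9 and 63.8 TPM at low extinction in females. The groups overlapped, and replicate 2 of low extinction was the lowest of the 6. On log2(TPM + 1) the female change was -0.08 (limma adjusted p = 0.738), and leaving out single libraries gave -0.13 to -0.02. In males the authors' deposited table gave -0.00 for Hapln4. The difference between the sexes was 0.16 in the authors' log2 fold changes, with a 95% interval from -0.02 to 0.34, and 0.07 in limma (adjusted p = 0.900).

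**Figure D2:**
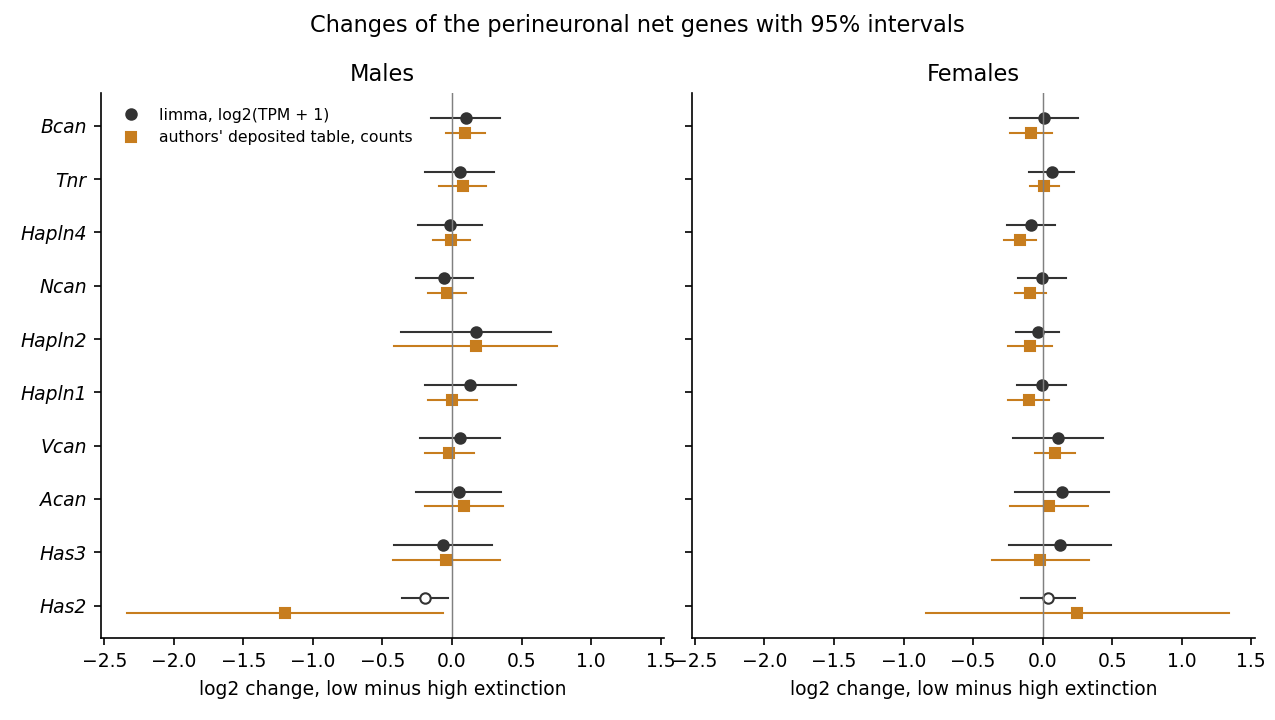
Log2 change from high to low extinction in males and females for each gene, with 95% intervals; circles are limma on log2(TPM + 1), open for Has2, which was fitted only without the filter on low values, and squares are the authors' deposited DESeq2 fold changes turned to the same direction. All limma intervals of the 9 filtered genes span 0, and of the authors' intervals those of Hapln4 in females and Has2 in males do not.

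Has2, which encodes the synthase of long hyaluronan chains, was the 1 case among 20 (10 genes in 2 sexes) whose groups did not overlap. In males it lay at 0.282, 0.186 and 0.372 TPM at high and at 0.113, 0.157 and 0.0831 TPM at low extinction, so each low-extinction male lay below each high-extinction male. The same arrangement was found for 5.54% of all genes above 0 TPM in males. In females Has2 lay at 0.278, 0.0752 and 0.248 TPM at high and at 0.249, 0.196 and 0.250 TPM at low extinction, with full overlap. The authors' deposited table gave a male log2 change of -1.20 (SE 0.58, DESeq2 unadjusted p = 0.0389, adjusted p = 0.607) and a female change of 0.25 (SE 0.56). Limma without the filter on low values gave -0.19 in males on log2(TPM + 1), a scale that compresses changes of so low a gene (unadjusted p = 0.0295, limma adjusted p = 0.866), and -0.23 for the interaction (limma adjusted p = 0.756). The male difference did not pass adjustment in either source. Levels of Has2 are low, and its exons overlap the antisense gene. Summed markers of the choroid plexus and ependyma lay at 3078, 3521 and 359 TPM in high-extinction males and at 987, 64.7 and 76.4 TPM in low-extinction males, and those of meningeal fibroblasts at 131, 141 and 123 TPM and at 113, 56.8 and 54.8 TPM. The part of these cells in the Has2 difference was not tested. Has3 moved by -0.07 in males (SE 0.15, limma adjusted p = 0.991) and 0.12 in females (SE 0.15, limma adjusted p = 0.821).

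The rest of the net pathway was read from 4 lists, chosen with earlier results of these data known. The lists hold 62 genes and none of the 10. In limma 57 of them were tested in males, 56 in females, 57 averaged over the sexes and 57 for the interaction, and 0 were called in any comparison, with 4, 6, 6 and 7 at an unadjusted p under 0.05. The authors' deposited tables called 0 of the 59 with an adjusted p in males and 2 of 57 in females. Over all genes they called 0.504% in males and 0.857% in females. At an unadjusted p under 0.05 stood 11 of 62 and 9 of 61, beside 7.58% and 8.65% of all genes averaging 1 TPM or more. For net assembly and associated matrix (14 genes, among them Ptprz1, Cspg5 and Nptx2) no gene was called in either source, and the median log2 change in limma was -0.04 in males and 0.01 in females. The enzymes that build and sulfate chondroitin sulfate (20 genes) had medians of -0.05 and 0.01, with 0 called. In females 14 of these enzymes were above 0 and 5 below in limma, against 4 above and 15 below in the authors' deposited table. That table gave females a median of -0.06 for the enzymes and -0.04 for net assembly, beside -0.01 over all genes. The limma median over all genes in females was 0.06. Proteases, their inhibitors and enzymes of hyaluronan breakdown (20 genes) had limma medians of -0.11 and 0.07, with 0 called. Of those tested, 14 of 18 were below 0 in males and 5 of 17 in females. The authors' deposited table gave them a female median of -0.01, with 7 above 0 and 10 below. Their median interaction in limma was -0.28, with 17 of 18 below 0 and 0 called, beside the median of -0.09 over all genes. The median interaction was -1.26 for the meningeal fibroblast markers (11 of 11 below 0), -0.30 for endothelial and pericyte markers (11 of 12) and -1.84 for choroid plexus and ependyma markers (11 of 11), and the part of these cells in the protease values was not tested. Receptors of chondroitin sulfate and hyaluronan (8 genes) had medians of -0.15 in males and -0.06 in females.

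The 2 called genes both encode Nogo receptors, which bind myelin inhibitors and chondroitin sulfate and restrain axon growth. Rtn4r lay at 72.0, 66.1 and 61.4 TPM at high and at 56.3, 47.5 and 61.9 TPM at low extinction in females. It fell by 0.35 on the log2 scale in the authors' deposited table (SE 0.08, DESeq2 adjusted p = 0.00699). Rtn4rl1 lay at 48.4, 52.0 and 49.9 TPM at high and at 46.1, 42.4 and 47.3 TPM at low extinction, and it fell by 0.23 in the authors' deposited table (SE 0.06, DESeq2 adjusted p = 0.0225). The 2 groups of females overlapped for Rtn4r. For Rtn4rl1 each low-extinction female lay below each high-extinction female, as for 1.98% of genes averaging 1 TPM or more in females. In either direction, 16.3% of these genes had groups that did not overlap. Limma did not call either (Rtn4r -0.27, limma adjusted p = 0.563, and Rtn4rl1 -0.14, limma adjusted p = 0.585). The third family member, Rtn4rl2, named after its values were seen, had -0.37 in females in the authors' deposited table (SE 0.12, DESeq2 adjusted p = 0.156). In males limma gave -0.15 for Rtn4r, -0.10 for Rtn4rl1 and -0.03 for Rtn4rl2, and the interaction was 0.12 for Rtn4r (limma adjusted p = 0.862), so no sex difference was detected. In the same females Slc17a7, the vesicular glutamate transporter of excitatory neurons, was also singled out after its values were seen. It lay at 906, 872 and 941 TPM at high and at 537, 711 and 601 TPM at low extinction. The authors' deposited table gave Slc17a7 -0.17 and did not call it (SE 0.07, DESeq2 adjusted p = 0.356). Of 14 excitatory hippocampal markers, that table called 1, Neurod2, lower at low extinction in females, with 3 above 0 and 11 below. In limma 5 of the 14 were above 0 and 9 below, with a median of -0.06 and 0 called. The part of excitatory neurons in the receptor differences was not tested.

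Tnc, a tenascin of the developing brain's matrix, was singled out after its values were seen. In males it lay at 2.40, 1.55 and 2.29 TPM at high and at 1.76, 0.892 and 0.897 TPM at low extinction, with an authors' deposited log2 change of -0.76 (SE 0.23, DESeq2 adjusted p = 0.112). In females its change in the authors' deposited table was 0.03. Tnc did not pass in either sex.

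Each of the 4 lectican genes lies beside a gene of the link protein family, with 0 annotated genes between them. Ncan and Hapln4 lie 2222 bases apart on chromosome 8, tail to tail. Bcan and Hapln2 lie 21519 bases apart on chromosome 3, on the same strand. Vcan and Hapln1 lie 43659 bases apart on chromosome 13, tail to tail. Acan lies 2 bases from Hapln3 on chromosome 7, tail to tail, and Hapln3 had 0.524 TPM on average. Neighbours had unlike levels, apart from Ncan and Hapln4, with means of 61.5 and 61.7 TPM.

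The profiles of 3 of these pairs over the 12 libraries, as log2(TPM + 1) minus the mean of each sex, are described by their correlation, with no test, since 36 pairs among the 9 genes were computed and this description was chosen after values were seen. Ncan and Hapln4 had the highest Pearson r of the 36, 0.749 (Spearman rho 0.713), with 0.669 in males, 0.858 in females, 0.635 without the 2 libraries farthest from the median of Ncan and 0.674 after rescaling the libraries. Even so, 2.13% of 18444 genes were more like Ncan than Hapln4 was. Bcan and Hapln2 had r = 0.633 (rho 0.545), with 0.949 in males and -0.258 in females. Hapln2 ran from 19.2 to 35.2 TPM in males but only from 25.6 to 28.0 TPM in females. With so little variation, the female r cannot show that the sexes differ. Vcan and Hapln1 had r = -0.105 (rho -0.301). Libraries share their total and their ribosomal share across genes, and leaving out single libraries moved r from 0.615 to 0.863, from 0.470 to 0.782 and from -0.493 to 0.010 for the 3 pairs.

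**Figure D3:**
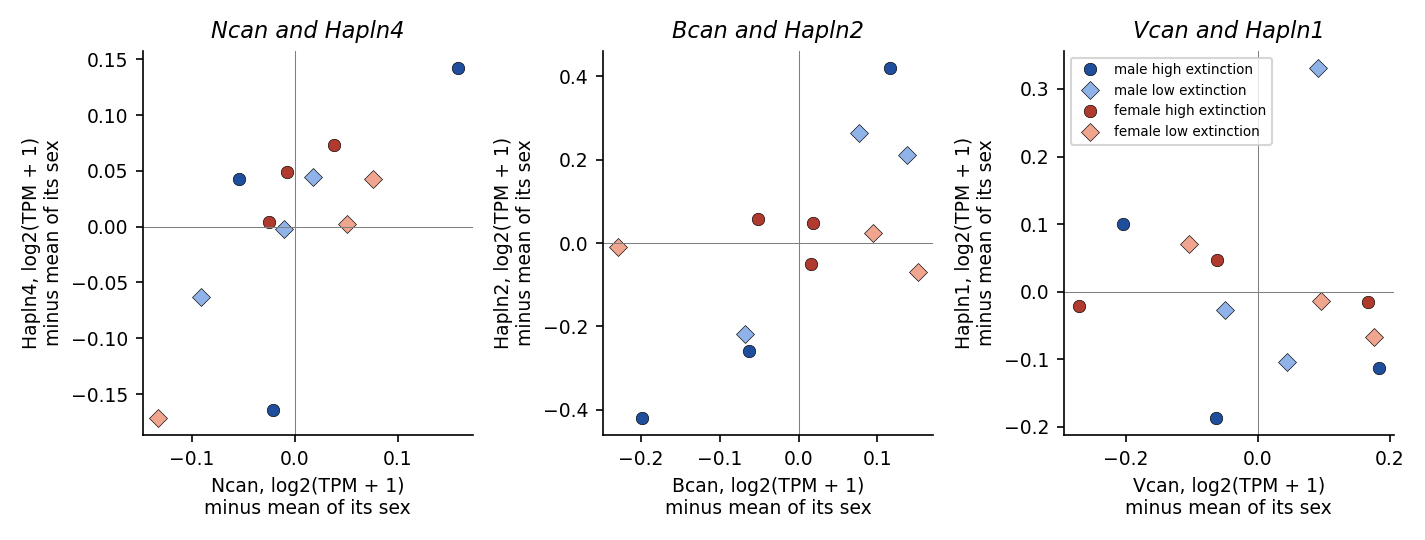
Each panel plots a lectican gene against its neighbouring link protein gene, both as log2(TPM + 1) minus the mean of the mouse's sex; points are the 12 libraries. Ncan and Hapln4 rise together (r = 0.749), Bcan and Hapln2 do so among males (0.949), and Vcan and Hapln1 do not (-0.105). Among females, whose Hapln2 varied little, the r of Bcan and Hapln2 was -0.258.

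The upstream sequences of Bcan and Hapln2, the neighbours on the same strand, are shown for 2 reasons. Both were in the promoter table, and their levels moved together in males, where Hapln2 varied most. The windows hold the 250 bases before the RefSeq start (GRCm38.p6, minus strand, 5′ to 3′), and that of Hapln2 is printed up to its first annotated exon base, for 178 bases. Capitals mark matches to the motifs named next. The Bcan window is chr3:88000357-88000606 and the printed Hapln2 window is chr3:88027584-88027761.
Bcan: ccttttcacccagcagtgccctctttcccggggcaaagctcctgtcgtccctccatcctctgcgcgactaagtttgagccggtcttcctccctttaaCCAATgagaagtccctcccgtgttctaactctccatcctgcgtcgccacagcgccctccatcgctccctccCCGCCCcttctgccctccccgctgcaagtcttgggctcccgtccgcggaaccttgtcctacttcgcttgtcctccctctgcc
Hapln2: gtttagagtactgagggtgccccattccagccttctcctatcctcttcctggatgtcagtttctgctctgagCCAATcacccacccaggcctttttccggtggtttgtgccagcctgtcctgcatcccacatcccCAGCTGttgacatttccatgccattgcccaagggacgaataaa

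The whole 250-base windows were searched on both strands for 6 short motifs, picked as common core promoter or lineage factor words, with no overlap between matches in the printed sequences. The motifs were the GC box GGGCGG (found in 32.7% of 32851 RefSeq windows of this length), the CCAAT box CCAAT (33.8%), the TATA box TATAAA (12.4%), the SOX words ACAAAG (16.5%) and ACAATG (10.7%), and the E box CAGCTG (13.0%). Bcan held 1 GC box and 1 CCAAT box. Hapln2 held 1 CCAAT box, 1 E box and, in the stretch not printed, 1 ACAATG. The pair shared the CCAAT word alone, which 33.8% of windows hold. Base composition differed more, with 62.0% GC and 16 CpG sites in the Bcan window against 52.4% and 2 in that of Hapln2, beside medians of 52.4% and 6. In all, 7 of the 10 genes were matched in the RefSeq table. The Acan window had 74.4% GC, 26 CpG sites, 3 GC boxes, 1 CCAAT box and 1 E box. Vcan held 2 GC boxes and 1 CCAAT box, Ncan 1 GC box, 1 TATA box and 1 E box, Tnr 1 ACAAAG and Hapln1 none of the 6. All 250 bases of the Hapln1 window, and 29 of the Ncan window, lie in annotated exons of the gene itself. These are matches of letters and show no binding.

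Genes most like the net genes over the 12 libraries were ranked among 18444 genes by the same Pearson r, as a description with no test. Wfs1, a marker of CA1 pyramidal neurons, was most like Bcan (r = 0.984), ahead of Idua (0.957) and Slc12a5, the neuronal chloride transporter (0.947). Wfs1 ran from 48.9 to 74.5 TPM. The 14 excitatory hippocampal markers, Wfs1 among them, had a median r of 0.244 with Bcan, below the 0.455 of 9 microglia markers. Rasl10b (0.963), Atp6ap1 (0.927) and Rab11a (0.916) were most like Acan. Rnf40 (0.946), A330009N23Rik (0.942) and Gm8399 (0.939) were most like Ncan, and Itih3, a hyaluronan-binding heavy chain (0.942), D030047H15Rik (0.913) and Abtb1 (0.881) most like Vcan. For Hapln1 they were AC164561.1 (0.918), Chm (0.896) and Ss18l2 (0.884), for Hapln2 Gm7867 (0.921), Wdcp (0.919) and Lgi4 (0.918), and for Hapln4 Gm10293 (0.963), Gm3200 (0.959) and Gm12033 (0.959). Tnr was most like Hcrtr2 (0.911), Zc3h12b (0.906) and Dock4 (0.893).

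Among 10 lists of cell type markers, the oligodendrocyte list stood nearest to Hapln2 and farthest from Tnr. The median r of its 16 genes was 0.679 with Hapln2, and 3 of the 16 were among the 100 genes most like it, a set that holds 0.542% of all genes. The same 100 held 2 of 12 astrocyte, 1 of 11 parvalbumin interneuron and 1 of 10 oligodendrocyte precursor markers, and 0 of each remaining list. With Tnr the median r was -0.734 and 0 of 16 had an r above 0. Much of this came from 1 library, as values without it, added after the data were seen, show. The summed oligodendrocyte markers lay at 4940 TPM in replicate 2 of the high-extinction males and between 2782 and 4314 TPM elsewhere. Without it the median r was 0.417 for Hapln2 and -0.334 for Tnr, and among the 6 females it was -0.220 and -0.375. Each of the 10 lists, the parvalbumin interneuron list (0 of 11) included, had 0 genes among the 100 most like Acan. That set is so small a share of all genes that a count of 0 says little. The parvalbumin interneuron list had a median r of 0.028 with Acan, and Pvalb itself ran from 27.1 to 58.9 TPM.

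**Figure D4:**
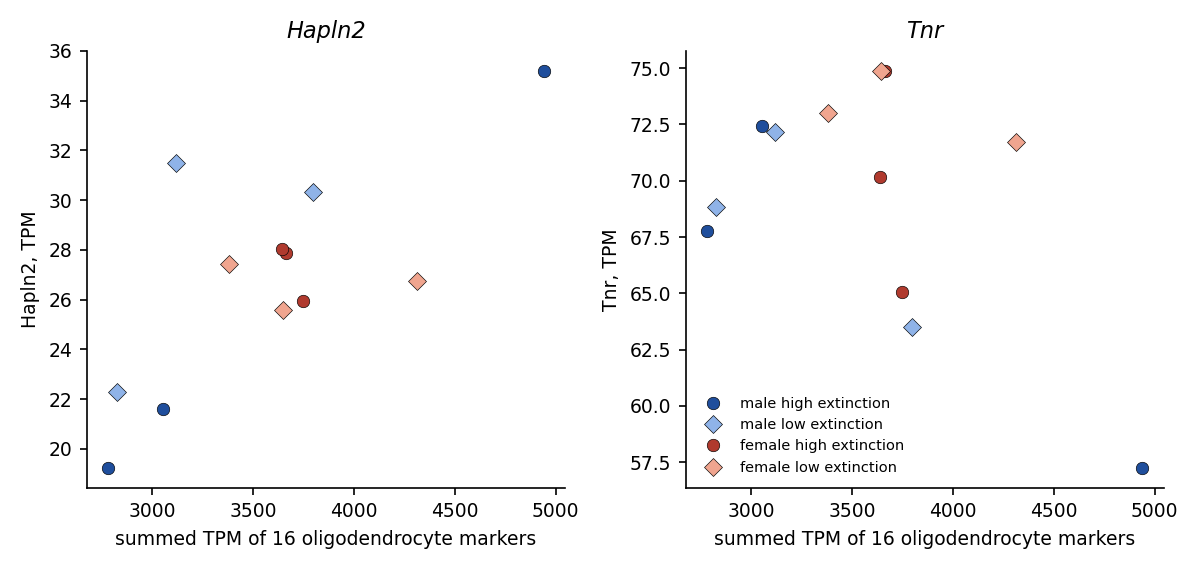
TPM of Hapln2 (left) and Tnr (right) in each library against the summed TPM of 16 oligodendrocyte markers; axes do not start at 0. Replicate 2 of the high-extinction males, at 4940 TPM on the horizontal axis, had the highest Hapln2 (35.2 TPM) and the lowest Tnr (57.2 TPM).

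Marker lists of several cell types had medians away from 0 in a group comparison, with 0 members called in limma. The lists were chosen with earlier results of these data known, so their medians are a description only. In males the oligodendrocyte list had a median log2 change of -0.12 in limma, with 16 of 16 genes below 0 and 0 called. The choroid plexus and ependyma list had one of -1.77, with 11 of 11 below 0 and 0 called in limma. The authors' deposited table called 3 of these 11, beside 0.504% of all genes. The summed levels of both lists overlapped between the male groups. Oligodendrocyte sums were 2782, 4940 and 3054 TPM at high and 2827, 3117 and 3798 TPM at low extinction. The meningeal fibroblast list had a male median of -0.44 in limma, with 9 of 10 genes below 0 and 0 called. Its male sums, 123 to 141 TPM at high and 54.8 to 113 TPM at low extinction, did not overlap. In females the meningeal fibroblast list had a median of 0.64 and the thalamus and habenula list one of 0.30, with 0 called in limma. The authors' deposited table called 7 of 11 and 4 of 15 of their genes averaging 1 TPM or more, all higher at low extinction, beside 0.857% of all genes. Fibroblast sums in females were 101 to 109 TPM at high and 128 to 153 TPM at low extinction. Thalamus and habenula sums were 129 to 157 TPM and 195 to 207 TPM, so neither list overlapped between the female groups. Of single genes averaging 1 TPM or more, 11.5% in males and 16.3% in females did not overlap. Prkcd, abundant in thalamus, lay at 18.2, 24.4 and 21.3 TPM at high and at 29.5, 35.3 and 35.4 TPM at low extinction in females. The other marker genes called were Foxj1, Tekt1 and Ccdc153, of cilia, and Col3a1, a collagen, lower at low extinction in males, and Col3a1, Col1a2, Col6a3, Slc6a13, Slc22a6, Igf2, Aldh1a2, the smooth muscle genes Acta2 and Myh11 and the thalamic genes Cacng5, Zic1 and Zic4 higher and Sox10 lower at low extinction in females, all in the authors' deposited tables. The parvalbumin interneuron list had limma medians of -0.06 in males and 0.04 in females, beside -0.02 and 0.06 over all genes tested. In females 7 of its genes were above 0 and 4 below in limma. The authors' deposited tables gave medians of -0.03 in males and -0.11 in females, the latter with 1 gene above 0 and 10 below. The direction in females thus differed between the sources, with 0 of 11 called in either. Gfap, of astrocytes, ran from 220 to 302 TPM, Mbp, of oligodendrocytes, from 357 to 811 TPM and Pdgfra, of oligodendrocyte precursors, from 18.4 to 32.2 TPM. The part of these cells in the values of the net genes was not tested.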

How the data were processed

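Libraries were made from polyadenylated RNA with a Kapa mRNA kit, per the labels' protocols. TopHat2, Bowtie2, HTSeq, StringTie 1.3.3b and the authors' DESeq2 are named in the submitters' processing notes beside GRCm38.p5 and mm10, with no role given to any. The authors deposited TPM per mouse for each sex. They also deposited, per the file headers, a table per sex from DESeq2 with the mean normalized count (a signal scaled by the authors), the log2 fold change, its standard error, a test statistic (a score), and p and adjusted p-values. No header names the direction of the deposited log2 fold change. Across genes it correlated with the difference of log2(TPM + 1), low minus high, at -0.578 in males and -0.463 in females, and in 101 of 101 and 133 of 134 called genes the sign was opposite, so it was multiplied by -1.

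Differences were taken within each sex's table, and the sexes were then averaged or subtracted. TPM keeps no depth. Tests used log2(TPM + 1) for genes averaging 1 TPM or more, in limma 3.58.1 (R 4.3.3, variance trend, Benjamini-Hochberg adjustment over all genes, threshold 0.05), over 6 libraries within a sex and all 12 otherwise. This step was also tested on simulated data. The net genes, the 4 pathway lists and the 10 marker lists were chosen with earlier results of these data known. Named genes were the 10 net genes, list genes called by limma or by an authors' table, Pvalb, Pdgfra, Mbp, Gfap, Ttr, Prkcd and the 3 genes most like each net gene, which for Has3 are not reported here. Also named are Prox1, Neurod6 and C1ql2 as a check of the tissue, Hapln3 as the neighbour of Acan, and Tnc, Slc17a7 and Rtn4rl2, chosen after their values were seen. Alternatives were other pseudocounts, filters and scalings, no ribosomal RNA-derived genes, no variance trend, a joint fit, the authors' fold changes and leaving out each library. No 2 libraries held identical values. Gene positions are from GENCODE M21 (GRCm38), which holds all 10 identifiers in the same version. Figures used Python 3.11.15 and matplotlib 3.10.9.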

Additional observations from a re-analysis of the deposited data

How the results depend on the processing

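Under all alternatives run, limma and the authors' deposited tables called 0 of the net genes, and the smallest adjusted p was 0.230. Of 662 alternative values of the 40 changes (10 genes in 4 comparisons), 607 had the direction reported and 55 the other sign, in 20 changes whose reported size was at most 0.12 on the log2 scale, 34 of them on leaving out 1 library. The cause was not tested. With the authors' deposited fold changes the values of the other sign were -0.0182 for Vcan in males, and -0.0837 for Bcan and -0.0152 for Has3 in females, and -0.0498 for Hapln1 and -0.0285 for Has3 on average, and 0.0439 for Acan, 0.0516 for Ncan and 0.0642 for Tnr for the interaction. With median ratio scaling the values of the other sign were 0.0099 for Hapln4 in males, and -0.0533 for Bcan in females, and 0.0368 for Ncan, 0.0269 for Vcan and 0.0785 for Tnr for the interaction. With quantile normalization the values of the other sign were 0.0036 for Hapln4 in males, and -0.0315 for Has3 on average, and 0.0236 for Acan, 0.015 for Ncan, 0.0683 for Vcan and 0.0493 for Tnr for the interaction. With ribosomal RNA-derived genes left out the values of the other sign were -0.0256 for Bcan in females, and 0.0118 for Tnr for the interaction.

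Leaving out single libraries changed the sign of the following. In males it gave -0.0123 to 0.0900 for Acan, -0.0961 to 0.0099 for Ncan, -0.031 to 0.163 for Vcan, -0.0991 to 0.054 for Hapln4, -0.0407 to 0.126 for Tnr and -0.149 to 0.0062 for Has3. In females it gave -0.0615 to 0.129 for Bcan, -0.0426 to 0.0617 for Ncan and -0.0442 to 0.0244 for Hapln1. On average it gave -0.0499 to 0.0033 for Ncan, -0.0034 to 0.105 for Hapln1, -0.0153 to 0.194 for Hapln2 and -0.0266 to 0.0646 for Has3. For the interaction it gave -0.163 to 0.0299 for Acan, -0.0315 to 0.168 for Bcan, -0.117 to 0.0135 for Ncan, -0.165 to 0.0539 for Vcan, -0.015 to 0.138 for Hapln4 and -0.106 to 0.0613 for Tnr. The r of Vcan and Hapln1 ran from -0.493 to 0.010.

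Over all genes limma called 0 in males and 1 in the joint fit, and 2 to 6 on leaving out a library. In females it called 2, with 4 at a pseudocount of 5 or a mean of at least 5 TPM, 1 without a filter, 0 in the joint fit and 4 to 10 on leaving out a library. On average it called 0, and 0 to 3 on leaving out a library. For the interaction it called 1, with 2 without a filter or a variance trend, and 1 to 4 on leaving out a library. No paired analysis was possible because the labels number no replicates, so no mouse of one group belongs to a mouse of another. Has2 was fitted only without the filter, so it has no values under the other limma alternatives. With 3 mice a group, the limma intervals of the 9 genes reached folds of 0.749 to 1.64 in males and 0.837 to 1.40 in females. Depth per library is unknown.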
